A study of Sus scrofa with 36 samples.

Results

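Circular RNA (circRNA) libraries made with and without RNase R were compared within the same pigs. The comparison used 22 of the 36 circRNA libraries of the study, an RNase R library (batch nv1) and a total RNA library (batch nv2) from each of 11 pigs, paired by age and animal number. The hearts came from Yorkshire pigs on normal feed. They were taken at P1, P3, P7 and P28, where the number is the day after birth. The pairs numbered 3 at P1, 3 at P3, 3 at P7 and 2 at P28, because 1 pair at P28 was left out for an RNase R library with 1604 back-spliced reads. All 24 libraries of both batches, including the pair left out, were sequenced by Novogene after removal of ribosomal RNA, and the nv2 libraries were made from new samples of the same animals. The study describes the sequenced samples as coming from the entire heart, myocytes and other cells together. The junction tables name no genes, so the tissue label was not checked against heart markers.

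CircRNAs form when a downstream splice site is joined to an upstream one. The product is a closed loop without free ends, and a read across the join (a back-spliced read) identifies it. RNase R is an exonuclease that degrades linear RNA and leaves closed loops largely intact, so it is widely used to enrich circRNAs before sequencing. In the heart, circRNAs are made from many genes of the contractile apparatus and change with development.

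The sample labels name only Novogene's sequencing rounds. That nv1 was treated with RNase R was inferred from the series description, which calls it circRNA sequencing and nv2 total RNA sequencing, and from the study's methods, whose circRNA protocol includes the digestion. RNase R was not the only difference between the batches. They also differed in tissue sample, in sequencing round and in the number of reads aimed for, and the study's methods name a different library kit for total RNA, whereas the labels name a single kit for all libraries. Digestion and batch therefore cannot be told apart in the pairs. Below, "RNase R" and "total RNA" stand for the batches as sequenced. A further set of 12 total RNA libraries, sequenced by CD Genomics from other pigs (batch cd), is given beside the results where it bears on them. A level is given as CPM after TMM scaling, that is counts per 1000000 reads of a library total that was multiplied by a TMM factor, which lines up the bulk of the junctions between libraries. The factors were 0.790 to 1.08 with RNase R (median 0.847) and 1.04 to 1.2 in total RNA (median 1.16), so levels are mostly above the plain share of a library's back-spliced reads with RNase R and below it in total RNA. Levels, overlaps and counts of pigs are on the TMM scale unless a plain share per 1000000 reads is named. Both scales are relative, so that the rise of one junction lowers the others. A lower share, fewer cells making a circRNA and less of it per cell cannot be told apart in these bulk samples. The span is the genomic distance between the 2 ends of a junction, introns included, and is not the length of the circle. Junctions are written with their Sscrofa10.2 positions as in the files, and the exons inside them are not given there.

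RNase R libraries held 15730 to 65478 back-spliced reads (median 30833, total 385734) and total RNA libraries 10819 to 17027 (median 11869, total 139230). Every pig had more back-spliced reads in its RNase R library than in its total RNA library. Without any correction for depth, 5045 to 12603 junctions were seen per RNase R library and 4178 to 5867 per total RNA library. Counts of junctions were therefore compared after thinning each library to 10819 reads, the depth of the shallowest.

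At this equal depth the numbers of junctions were close. RNase R libraries held 4126 to 4784 junctions (median 4442) and total RNA libraries 4132 to 4540 (median 4205). The number was higher with RNase R in 10 of 11 pigs, by 211 junctions on average (SD 174, n = 11), with an exact two-sided sign-flip permutation p of 0.00293 (0.00352 adjusted over 12 measures). The groups overlapped. With the pair left out included, at 1604 reads per library, the difference was -39.1 junctions (12 pairs, exact permutation p = 0.514). The share of junctions with a single read was 56.7% to 65.1% with RNase R and 51.6% to 60.1% in total RNA. This share was higher with RNase R in all 11 pigs, by 5.68 percentage points (SD 2.51), with p = 0.000977 in the exact permutation test, the smallest that 11 pairs can give (adjusted p = 0.0013). Without thinning it was lower in the deeper RNase R libraries, with a difference of -9.21 points, and with the pair left out included the difference was -1.83 points (exact permutation p = 0.98). The 10 most abundant junctions took 5.34% to 7.08% of reads with RNase R and 5.29% to 6.95% in total RNA. That difference was 0.03 percentage points (SD 0.782) with 6 pigs higher and 5 lower, and it did not pass the test (exact permutation p = 0.887).

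Reads moved toward short spans. The median span per back-spliced read was 6091 to 7882 bases with RNase R (median 6957) and 9789 to 10857 bases in total RNA (median 10118). The ranges of the 2 kinds did not overlap, and the median was lower with RNase R in every pig. On the log2 scale the change was -0.56 (SD 0.10, n = 11), 1.48-fold lower (exact permutation p = 0.000977, adjusted 0.0013). By age, the RNase R value was 0.645 of the total RNA value at P1, 0.680 at P3, 0.722 at P7 and 0.656 at P28, as means over the pigs.

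The shift ran through all 5 classes of span. Spans under 500 bases made up a median of 2.10% of reads with RNase R and 1.13% in total RNA, and spans of 500 to 2000 bases made up 16.4% and 9.94%. Spans of 2000 to 10000 bases made up 43.6% and 37.9%. These 3 classes were higher with RNase R in all 11 pigs. Spans of 10000 to 50000 bases made up 35.0% of reads with RNase R and 45.7% in total RNA, and spans over 50000 bases 2.93% and 5.31%. These longer classes were lower with RNase R in all 11 pigs, and each of the 5 differences had p = 0.000977 (exact permutation, adjusted 0.0013).

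**Figure D1:**
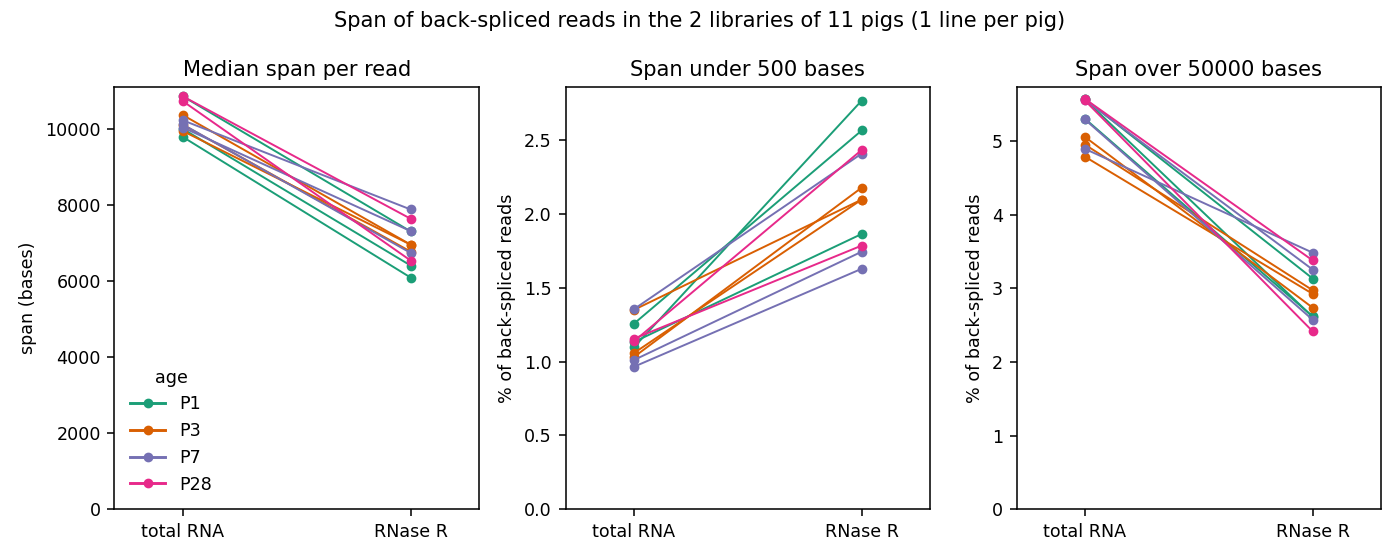
Median span per back-spliced read in bases (left) and the percentage of back-spliced reads with a span under 500 bases (middle) or over 50000 bases (right) in the total RNA and RNase R libraries, with 1 line per pig coloured by age. Every line falls in the left and right panels and rises in the middle one, and the median span ranges from 9789 to 10857 bases in total RNA and from 6091 to 7882 with RNase R.

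Within the RNase R libraries the median span also followed depth. Deeper libraries had longer spans, with Pearson's r = 0.777 (permutation p = 0.00466, adjusted over both kinds 0.00932) and Spearman's rho = 0.911 (permutation p = 0.00017, adjusted 0.00034) over 11 libraries. Without the 2 libraries farthest from the median depth, r was 0.783 (n = 9). Total RNA libraries gave r = 0.581 (permutation p = 0.0569) and rho = 0.620 (permutation p = 0.0467). The ages held 3 libraries at most, too few for a value within each. This relation was looked at after the spans were known. The RNase R library left out, the shallowest, had a median span of 2314 bases over 651 junctions, and the total RNA library of that pig had one of 10811 bases.

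The cd libraries did not group with the other total RNA libraries in span. Their median span per read was 5979 to 9545 bases (median 8345), between the medians of both Novogene kinds, and all 12 lay below the lowest total RNA library. Spans under 500 bases made up 1.76% to 4.13% of cd reads (median 2.43%), above the median with RNase R, and spans over 50000 bases made up 2.50% to 4.31% (median 3.57%). The cd libraries held 8636 to 49042 back-spliced reads (median 26822). They come from other pigs and another company, and no test was made between them and the Novogene libraries.

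To hold the locus constant, junctions with 1 common end were compared with each other. Such pairs of circRNAs share a splice site and differ in how far the circle reaches. The 1390 pairs were chosen in the cd libraries, where both junctions had at least 10 reads, after the shift in span had been seen. Over all pairs, the longer junction took 31.7% to 39.8% of reads with RNase R (median 36.0%) and 47.7% to 52.5% in total RNA (median 50.2%). The ranges did not overlap, and the difference was -14.5 percentage points (SD 2.12), lower in all 11 pigs (exact permutation p = 0.000977, adjusted 0.0013). Of the 683 pairs with at least 20 reads in each kind, the longer junction had a lower share with RNase R in 496 and a higher one in 179, with a median difference of -7.69 points. In the cd libraries the share was 34.9% to 48.9% (median 43.2%), again between both kinds.

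The largest loss among the 20 pairs with most reads was on chromosome 7. The junctions chr7:31092405-31108955 and chr7:31081350-31108955, both on the minus strand, end at the same position and span 16550 and 27605 bases. In total RNA the pair had 269 and 177 reads, so the longer junction took 39.7%. With RNase R it had 1786 and 31 reads, and the longer junction took 1.71%, lower in all 11 pigs. On chromosome 4, chr4:129789460-129792899 and chr4:129774516-129792899 (minus strand) span 3439 and 18383 bases, and the longer of them took 73.8% of reads in total RNA and 51.4% with RNase R, again lower in all 11 pigs. On chromosome 1, the longer junction chr1:270602783-270641008 took 31.8% in total RNA and 11.6% with RNase R beside chr1:270602783-270619968 (plus strand). On chromosome 5, the longer junction chr5:89608595-89610635 took 59.3% and 43.4% beside chr5:89608595-89609429 (minus strand). Both losses were seen in all 11 pigs.

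Some loci went the other way. On chromosome 6 the longer junction chr6:32344545-32383981 took 23.3% in total RNA and 32.6% with RNase R beside chr6:32369033-32383981 (minus strand), and it was lower in 2 of 11 pigs. On chromosome 10 the longer junction chr10:49568555-49595487 took 47.0% and 55.1% beside chr10:49568555-49587733 (plus strand), and was lower in 1 of 11 pigs. A longer span at the same locus was thus not lost at every locus.

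**Figure D2:**
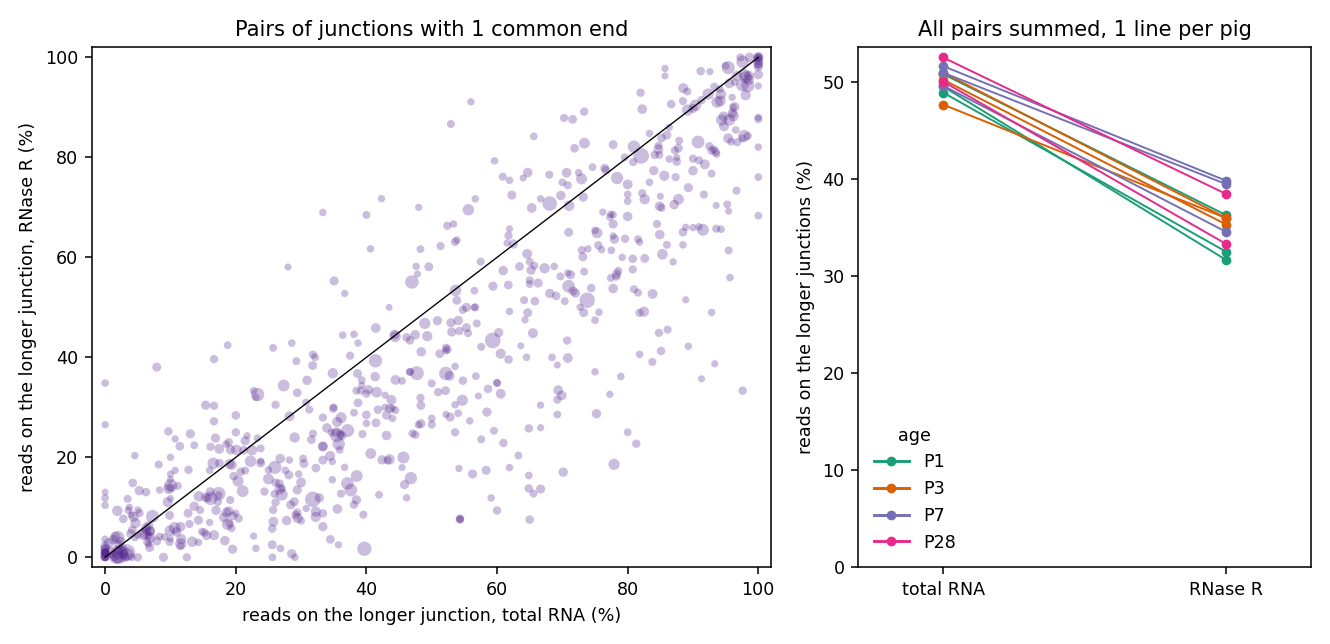
Left, the percentage of reads on the longer of 2 junctions with a common end in total RNA (x axis) and with RNase R (y axis), with 1 point per pair with at least 20 reads in each kind, point size rising with reads and a line at equal shares. Right, the same percentage over all 1390 pairs with 1 line per pig, coloured by age. Most points lie under the line (496 of 683), and every pig falls, from 47.7% to 52.5% in total RNA to 31.7% to 39.8% with RNase R.

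Each junction was then tested by edgeR, in a quasi-likelihood fit that kept the pig as a block. Of 4385 junctions tested, 794 passed an adjusted p under 0.05 (18.1%), 637 of them higher with RNase R (14.5%) and 157 lower (3.58%). The balance of directions depended on the filter and the scaling. The median change of all 4385 junctions was 0.77 on the log2 scale with a filter that counts libraries of any kind. When 3 counts were required in 3 libraries of each kind, 1232 junctions were tested and the median was 0.05. That gave 246 higher and 129 lower. Scaling by library totals gave 329 higher and 252 lower, with a median of 0.41. No junction called with TMM scaling changed sign under another scaling. The level was higher with RNase R in all 11 pigs for 229 junctions (5.22%) and lower in all 11 for 42 (0.958%). Of the called junctions, 222 and 41 did so. As plain shares, 111 tested junctions were higher in all 11 pigs and 70 lower. Of the 33 named junctions tested, 11 lay above total RNA without overlap and 8 below it. As plain shares 6 of the 11 overlapped, and 4 further ones lay below without overlap. Many named junctions were chosen for a small p and the same direction in all 11 pigs, so the choice itself favours such counts. Overlap was not counted over all 4385 junctions.

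**Figure D3:**
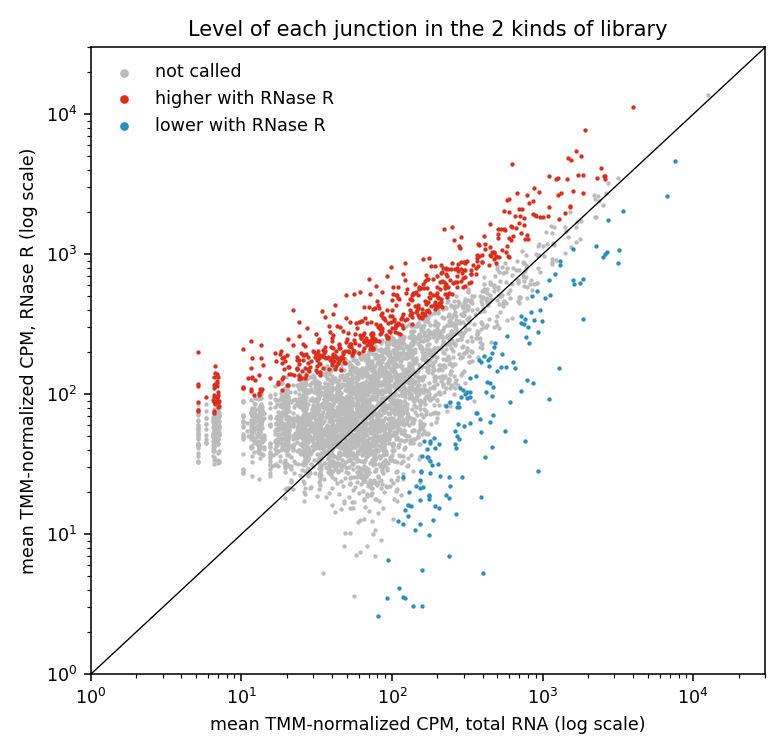
Mean TMM-normalized CPM of each tested junction in total RNA (x axis) and with RNase R (y axis), both on log scales, for junctions with reads in both kinds. Red points are called higher with RNase R (637 in all) and blue points lower (157 in all) at an adjusted p under 0.05 in edgeR, and the line marks equal levels.

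The changes were ordered by span. Of the 96 tested junctions with spans under 500 bases, 28 were called higher and 0 lower (edgeR, adjusted p under 0.05), with a median log2 change of 1.73. Of 555 with spans of 500 to 2000 bases, 153 were higher and 8 lower (median 1.41). Of 1905 with spans of 2000 to 10000 bases, 318 were higher and 37 lower (median 0.95). Of 1662 with spans of 10000 to 50000 bases, 132 were higher and 95 lower (median 0.27), and of 167 over 50000 bases, 6 were higher and 17 lower (median 0.19). The balance in the class of 10000 to 50000 bases turned with the setting, to 62 higher and 152 lower with library totals, 58 and 70 with 3 counts in 3 libraries of each kind, 31 and 71 with 10 counts in 6 libraries, 107 and 118 with DESeq2, and 110 and 113 with DESeq2's size factors. Without P28 replicate 2, 87 were higher and more than that lower. Each median is to be read against the 0.77 of all junctions tested. The main filter counts libraries of any kind, so a junction could pass it through the kind in which it was high. With 3 counts in 3 libraries of each kind, the medians were 0.91, 0.85, 0.28, -0.25 and -0.65 in the same order of classes. That filter left 12, 136, 501, 535 and 48 junctions, of which 4, 64, 117, 58 and 3 were called higher and 0, 8, 38, 70 and 13 lower.

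**Figure D4:**
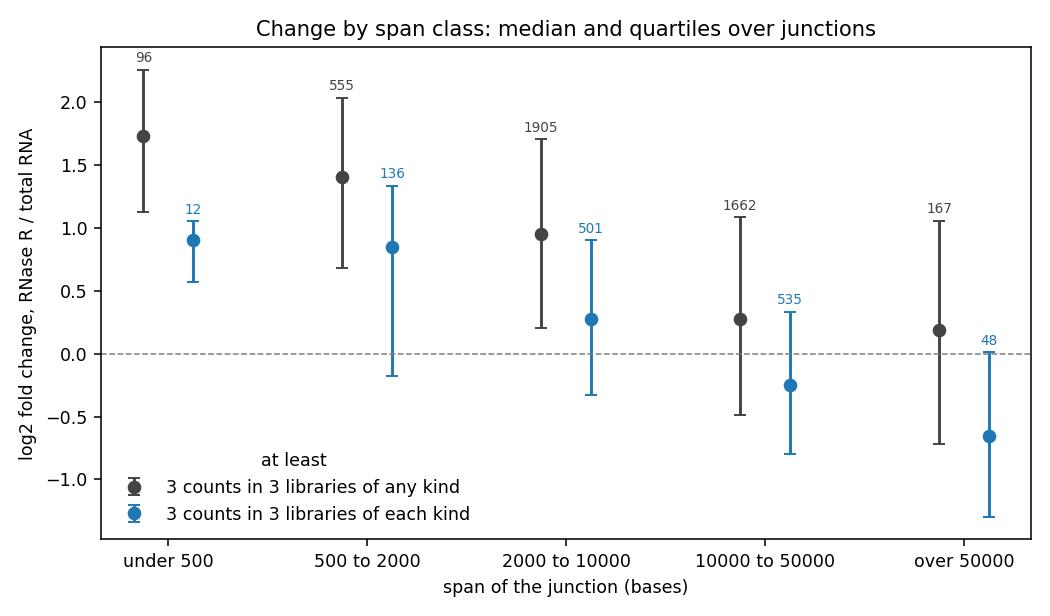
Log2 fold change of RNase R over total RNA (y axis) by span class in bases (x axis). Points are medians over junctions, bars the quartiles and small numbers the junctions tested, with the filter in grey requiring 3 counts in any 3 libraries and that in blue 3 libraries of each kind. The medians fall with span under both filters, from 1.73 to 0.19 and from 0.91 to -0.65.

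The ranks of abundant junctions were partly shared. The lists of the 10 most abundant junctions by mean level had 3 in common, those of the 100 most abundant 58, and those of the 1000 most abundant 675. Between the 2 libraries of a pig, the top 100 lists had 48 to 67 in common (median 54). Between RNase R libraries of different pigs they had 67 to 84 (median 76), and between total RNA libraries of different pigs 59 to 75 (median 67). The top of the list thus differed more between the kinds within a pig than between pigs within a kind. Across 4234 junctions with reads in both kinds, mean levels correlated with a Spearman's rho of 0.542. These junctions share libraries and are not independent, so no p is given. The median span of the 100 most abundant junctions was 10163 bases in total RNA and 6630.5 with RNase R.

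The most abundant junction was the same in both kinds, and its direction depended on the scale. It was chr2:61866061-61872040 on the plus strand, with a span of 5979 bases. Its level was 7775 to 19293 CPM with RNase R (median 14973) and 6349 to 17212 in total RNA (median 13457). The ranges overlapped almost fully, 7 pigs were higher and 4 lower, and the log2 change of 0.11 (SE 0.07) was not called (edgeR, adjusted p = 0.286). As a plain share it was lower with RNase R in all 11 pigs, at 6206 to 16343 per 1000000 reads (median 12380) against 7195 to 20305 (median 14763). It was called lower with library totals (log2 change -0.29, edgeR adjusted p = 0.000314) and with 10 counts in 6 libraries (-0.54, adjusted p = 8.77e-11), and called higher with no filter (0.29, adjusted p = 0.000278). The junction chr1:157816757-157823318 (plus strand, span 6561) also overlapped, with 3096 to 3721 CPM with RNase R (median 3418) and 2015 to 4243 in total RNA (median 3383), and its log2 change of 0.15 (SE 0.13) was not called (adjusted p = 0.422). It was called lower with 10 counts in 6 libraries (log2 change -0.50, edgeR adjusted p = 0.000196), and with library totals its change was -0.25 and not called (adjusted p = 0.15). As a plain share it was lower in 9 of 11 pigs.

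Several of the other abundant junctions gained rank with RNase R. The junction chr14:57846854-57848109 (minus strand, span 1255) held 7699 to 13799 CPM with RNase R (median 11693) and 2733 to 6902 in total RNA (median 3594), with ranks 2 and 4. These ranges did not overlap, whereas plain shares did, at 6408 to 13668 and 3023 to 8029. Its log2 change was 1.52 (SE 0.09, adjusted p = 7.16e-55). The junction chr1:270602783-270619968, rank 3 with RNase R and 28 in total RNA, held 5217 to 12060 CPM (median 7829) and 956 to 3238 (median 1974), a log2 change of 2.03 (SE 0.12, adjusted p = 4.15e-63). Its span of 17185 bases is long, so high levels with RNase R were not limited to short spans. The junction chr7:31092405-31108955 described above held 3874 to 9155 CPM with RNase R (median 5187) and 759 to 3142 in total RNA (median 1544), moving from rank 41 to rank 4 (log2 change 1.73, SE 0.13, adjusted p = 5.23e-37). As plain shares its ranges overlapped, at 3253 to 7308 and 913 to 3561. The 3 junctions were higher with RNase R in all 11 pigs on both scales. The junction chr2:134977666-134983095 (plus strand, span 5429) was higher in 10 of 11 pigs, and in 8 of 11 as a plain share, at 2255 to 6233 CPM (median 3693) and 1143 to 4242 (median 2354), with a log2 change of 0.75 (SE 0.13, adjusted p = 4.98e-07). That is close to the median of all junctions tested, and with a filter of 10 counts in 6 libraries it was 0.10 and not called (adjusted p = 0.49).

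Some of the shortest abundant junctions followed the same course. The junction chr11:266571-267124 (minus strand, span 553) held 3467 to 6875 CPM with RNase R (median 4423) and 792 to 2280 in total RNA (median 1420), with no overlap (log2 change 1.75, SE 0.14, adjusted p = 5.03e-34). The junction chrX:47899532-47900084 (minus strand, span 552) held 1611 to 5100 CPM (median 2510) and 228 to 1366 (median 539), a log2 change of 2.01 (SE 0.19, adjusted p = 3.39e-24). Its plain shares overlapped, at 1529 to 5531 and 274 to 1589. The junction chr5:89608595-89609429 (span 834) held 2524 to 15169 CPM (median 3526) and 882 to 5253 (median 1366). The ranges of the last overlapped, with a wide spread between pigs in both kinds, and all 11 pigs were higher with RNase R (log2 change 1.43, SE 0.13, adjusted p = 6.43e-24).

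The largest gain among the junctions named by rule and seen in both kinds was that of chr1:125143607-125147925 (plus strand, span 4318). It held 1952 to 6560 CPM with RNase R (median 4835) and 214 to 1309 in total RNA (median 625). It ranked 9 with RNase R and 171 in total RNA (log2 change 2.84, SE 0.17, adjusted p = 4.0e-61). These levels did not overlap, whereas its plain shares did narrowly, at 1542 to 6103 with RNase R (median 4024) and 253 to 1571 in total RNA (median 723), and the cd libraries held 910 to 3474 (median 3002). Other gains in all 11 pigs were those of chr4:79089336-79101679 on the minus strand (log2 change 1.6), chr3:92450640-92453197 on the plus strand (1.75) and chr8:146890663-146892955 on the plus strand (1.82). Their adjusted p-values were 1.74e-28, 1.49e-25 and 6.76e-23. The TMM levels of the 3 did not overlap between the kinds, and as plain shares this held for the first alone.

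Other abundant junctions of total RNA fell. The junction chr4:129774516-129792899, rank 3 in total RNA and 33 with RNase R, held 3307 to 9642 CPM in total RNA (median 7213) and 879 to 4339 with RNase R (median 2902). The ranges overlapped, but it was lower in all 11 pigs (log2 change -1.44, SE 0.11, adjusted p = 5.72e-34). Its plain shares did not overlap, at 3847 to 11596 in total RNA and 939 to 3587 with RNase R. The junction chr1:241875288-241903294 (plus strand, span 28006) held 1643 to 4529 CPM in total RNA (median 3157) and 471 to 1585 with RNase R (median 740), moving from rank 7 to 164 without overlap (log2 change -1.90, SE 0.16, adjusted p = 8.31e-28). The junction chr13:35647657-35658848 (plus strand, span 11191), rank 2 in total RNA and 8 with RNase R, was lower in 9 of 11 pigs, and in all 11 as a plain share. It held 5856 to 9653 CPM in total RNA (median 7546) and 2829 to 8794 with RNase R (median 4095), a log2 change of -0.78 (SE 0.10, adjusted p = 1.22e-12).

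A few falls were nearly complete. The junction chr13:28828408-28836794 (plus strand, span 8386) held 429 to 1510 CPM in all 11 total RNA libraries (median 834). With RNase R it had 11 reads in all, a median of 0 and at most 97.9 CPM, which moved it from rank 95 to rank 4172 (log2 change -4.61, SE 0.42, adjusted p = 5.16e-25). The junction chr2:30477464-30491902 (minus strand, span 14438) held 432 to 1214 CPM in total RNA (median 705) and 0 to 87.1 with RNase R (median 65.2), a log2 change of -3.95 (SE 0.43, adjusted p = 3.78e-18). The junction chr7:31081350-31108955, the longer of the chromosome 7 pair, held 234 to 1637 CPM in total RNA (median 1008) and 19.3 to 289 with RNase R (median 78.6), a log2 change of -3.51 (SE 0.34, adjusted p = 3.62e-22). Its levels overlapped and its plain shares did not.

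Further falls in all 11 pigs without overlap were those of chr16:47892128-47904101 on the minus strand (log2 change -2.96, SE 0.29, adjusted p = 1.67e-21), chr3:91035888-91039048 on the plus strand (-2.40, SE 0.23, adjusted p = 2.84e-23) and chr9:126533033-126547717 on the plus strand (-1.57, SE 0.16, adjusted p = 7.91e-21). The junctions chr1:110525007-110548336 (-1.40) and chr3:24136274-24148233 (-1.38), both on the plus strand, were lower in all 11 pigs, with ranges that overlapped on the TMM scale and not as plain shares. Of the 10 junctions lower with RNase R with the smallest p, 8 spanned more than 10000 bases, and the exceptions were chr13:28828408-28836794 and chr3:91035888-91039048. The longest spans among the 100 most abundant junctions were a pair on chromosome 15. The longest of total RNA, chr15:124628984-124720160 (minus strand, span 91176), had mean levels of 622 CPM with RNase R and 1773 in total RNA and was lower in all 11 pigs (log2 change -1.55, SE 0.21, adjusted p = 5.26e-12). The longest with RNase R, chr15:36377633-36422115 (plus strand, span 44482), had means of 1291 and 760 CPM and was higher in all 11 (log2 change 0.78, SE 0.22, adjusted p = 0.0047). That is close to the median change of all junctions tested. The call was lost with library totals (log2 change 0.38, adjusted p = 0.248), with 10 counts in 6 libraries (0.13, adjusted p = 0.593) and with the pair left out included (0.60, adjusted p = 0.132), and as a plain share the junction was higher in 9 of 11 pigs.

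**Figure D5:**
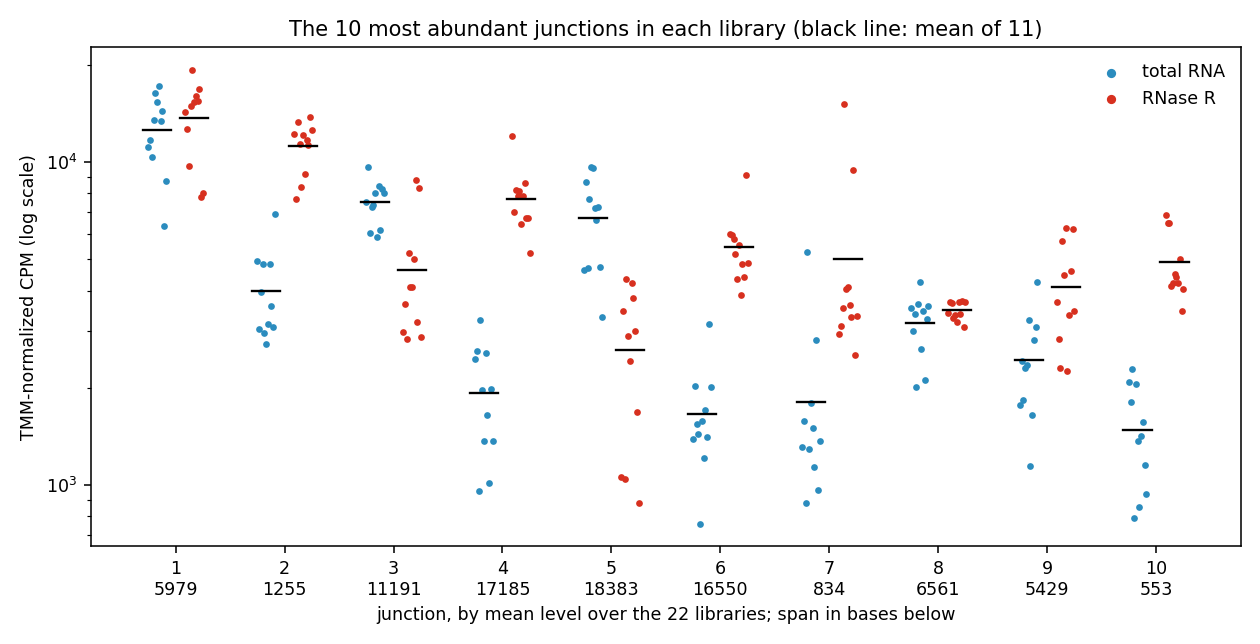
TMM-normalized CPM (y axis, log scale) of the 10 junctions with the highest mean level over the 22 libraries, with their span in bases under the rank on the x axis. Each point is a library, blue for total RNA and red for RNase R, and black lines are means of 11. Junctions 2, 4, 6 and 10 show no overlap between the kinds, junction 1 overlaps almost fully, and junctions 3 and 5 are lower with RNase R.

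The cd libraries gave a mixed picture of the same junctions, here in plain shares per 1000000 reads for all 3 batches. The junction chr14:57846854-57848109 had medians of 9722 with RNase R, 4157 in total RNA and 3474 in cd. The junction chr1:270602783-270619968 had medians of 6473, 2253 and 2717 in the same order, and in both cases cd was nearer to total RNA. The junction chr4:129774516-129792899 had medians of 2458, 8403 and 3139, with cd nearer to RNase R. The nearly lost junctions chr13:28828408-28836794 and chr2:30477464-30491902 were each seen in 2 of 12 cd libraries, and chr3:91035888-91039048 in 4 of 12. The third nearly lost junction, chr7:31081350-31108955, was seen in 12 of 12 cd libraries at shares of 540 to 2247 (median 1135), close to its total RNA median share of 1190 and above that of 69.6 with RNase R. Over all called junctions, the cd mean lay nearer to the total RNA mean for 273 of the 637 higher and for 37 of the 157 lower, with plain shares on the scale log2(CPM + 10). For all 4385 tested it was 1924, or 43.9%. Of the 157 lower junctions 15 had no cd read. The called junctions were chosen on the Novogene levels they are set beside here, so these counts are a description, and the part of pigs, company and digestion in them was not tested.

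Most reads lay on junctions seen in both kinds. The 22 libraries held 41204 junctions, of which 14056 were seen in both kinds, 19257 with RNase R alone and 7891 in total RNA alone. The shared junctions carried 87.9% of RNase R reads and 90.8% of total RNA reads. A single read supported 48.2% of the junctions seen with RNase R alone and 63.3% of those seen in total RNA alone. When the pooled RNase R reads were thinned to the 139230 reads of total RNA, 22002 junctions were expected against 21947 in total RNA, and 11392 were shared, 51.8% and 51.9% of each. Detection rose with depth of reading. Of total RNA junctions with a single read 44.6% were seen with RNase R, with 5 to 9 reads 92.4%, with 10 to 19 reads 99.1%, and with 50 or more reads 388 of 388. In the other direction, into the shallower libraries, the shares were lower. Of RNase R junctions with a single read 18.7% were seen in total RNA, with 5 to 9 reads 62.7%, with 10 to 19 reads 85.4%, and with 50 or more reads 1267 of 1268.

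Only 13 junctions with at least 10 total RNA reads were not seen with RNase R, and 467 with at least 10 RNase R reads were not seen in total RNA. The inequality turned at equal depth. With the RNase R pool thinned to the total RNA pool, the expected numbers were 49.8 and 33.5. The median span was 21974 bases for the 13 and 4587 bases for the 467. In the cd libraries 6 of the 13 were seen (46.2%) and 379 of the 467 (81.2%). The 467 took 0.610% to 1.46% of cd reads (median 1.08%) and the 13 took 0% to 0.0570% (median 0.00213%). The lists are of very unequal length, which by itself sets the order of these shares, so no p is given.

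The junction chr9:36992573-37001797 (plus strand, span 9224) had 21 reads spread over all 11 total RNA libraries and 0 with RNase R. Against a floor of 3 counts over the pooled RNase R libraries its plain share was 19.4-fold lower. The paired fit gave a log2 change of -4.58 (SE 0.95). The folds that follow are of plain shares against such floors too. The junction chr13:42346715-42392300 (minus strand, span 45585) had 19 reads in 9 total RNA libraries and was 17.5-fold lower (log2 change in the fit -4.24, SE 0.98). The junction chr14:57689329-57781734 (minus strand, span 92405) had 13 reads in 7 and was 12.0-fold lower. The junctions chr13:28822490-28836794 (plus strand, span 14304) and chr6:145355397-145402576 (plus strand, span 47179) had 12 reads in 5 libraries each and were 11.1-fold lower. The first of these ends where the nearly lost chr13:28828408-28836794 ends, so both junctions of that end were low with RNase R. In the cd libraries chr9:36992573-37001797 had 18 reads in 1 library and chr6:145355397-145402576 19 reads in 2, and the other 3 had 0. Floors cover counting error of the kind with 0 reads only. The reads of the other kind were taken as counted, on junctions chosen for having most reads, so these folds are not lower bounds.

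In the other direction, chr12:23750109-23756693 (plus strand, span 6584) had 53 reads in 10 RNase R libraries and 0 in total RNA. Its plain share was 6.38-fold higher against 3 counts over the pooled total RNA libraries. The junctions chr2:88675452-88679052 (minus strand, span 3600) and chr9:49325140-49325706 (minus strand, span 566) had 42 and 41 reads in all 11 RNase R libraries and were 5.05-fold and 4.93-fold higher. The junctions chr17:28264911-28268431 (minus strand, span 3520) and chr18:55667988-55668299 (plus strand, span 311) had 38 and 36 reads in 10 and 8 libraries and were 4.57-fold and 4.33-fold higher. These folds are not lower bounds either. The cd libraries held 29, 9, 7, 5 and 3 reads of these 5 junctions, so they were also read in libraries that the study describes as total RNA.

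Detection was compared between the libraries of a pig and those of other pigs. At equal depth, 33.5% to 37.9% of the junctions of a total RNA library were found in the RNase R library of the same pig (median 36.3%). In the RNase R libraries of the other pigs of its age, the mean share found was 32.4% to 37.0% (median 36.1%). The difference was 0.501 percentage points in favour of the same pig (SD 1.98), with 6 pigs above and 5 below (exact permutation p = 0.424). A difference between own and other pigs of an age was thus not detectable by this measure. Over the 55 pairs of different pigs, whatever their age, the share found in the other kind was 31.2% to 38.1% (median 35.7%). Within RNase R libraries 39.0% of junctions were found in another pig and within total RNA libraries 35.4%, as medians of 55 pairs of pigs. At this depth most junctions had a single read, as given above.

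A few junctions were present in some pigs and absent in others, in both kinds alike. Of 1025 junctions with at least 20 reads in each kind, 10 had no read in either library of 3 or more pigs, and for 3 of them the missing pigs were exactly the same in both kinds. These 3 were chosen for this pattern, which is a description. The junction chr5:8998034-9001360 (plus strand, span 3326) had reads in 3 pigs, 16, 6 and 8 with RNase R and 31, 25 and 7 in total RNA, and 0 in the other 8 pigs in both kinds. The junction chr9:138816199-138847474 (plus strand, span 31275) was read in the 3 pigs at P3 (12, 9 and 16 reads with RNase R, 22, 15 and 22 in total RNA) and in 1 pig at P7 (7 and 15), and in no other. The junction chr6:82504793-82507176 (minus strand, span 2383) was read in 8 pigs and missing from the same 3 in both kinds, 1 each at P3, P7 and P28. In those 8 pigs it had 4 to 29 reads with RNase R and 2 to 7 in total RNA, so its absence in total RNA is less firm.

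Whether the difference between the kinds changed with age was tested with an interaction. No junction of 4385 passed (edgeR, adjusted p under 0.05, 0%), 39 had an unadjusted p under 0.05, and DESeq2's likelihood ratio test also called 0, with 30 unadjusted. Both unadjusted counts lie below what a threshold of 0.05 gives by chance over 4385 junctions. With groups of 2 or 3 pairs the lack of calls does not show that the difference was the same at all ages. Within each kind, an age difference among the 4 ages was called for 21 junctions with RNase R (0.479%) and 8 in total RNA (0.182%), with 7 in common. The order of these counts turned with 10 counts in 6 libraries, to 3 with RNase R and 16 in total RNA, and DESeq2's likelihood ratio test gave 11 and 9. The numbers with an unadjusted p under 0.05 were 281 and 141, the first above and the second below what that threshold gives by chance over 4385 junctions. The RNase R libraries, which were deeper, had a common dispersion of 0.267 and total RNA libraries one of 0.314. No test of the difference in the number of calls was made.

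The 7 junctions called in both kinds had the same order of the 4 age means in both kinds in 5 of 7 cases. They were named after their values had been seen. The junction chr5:99055436-99062303 (minus strand, span 6867) had mean levels of 1845, 227, 538 and 2476 CPM at P1, P3, P7 and P28 with RNase R and of 1724, 171, 600 and 2761 CPM in total RNA. At P3 the 3 pigs held 196, 196 and 290 CPM with RNase R and 288, 152 and 71.9 in total RNA, below every pig at P1 and P28 in either kind (adjusted p = 8.96e-14 and 1.05e-09 in edgeR). The junction chr14:44169276-44175988 (minus strand, span 6712) had 2952, 2827, 2739 and 6567 CPM with RNase R and 1859, 1517, 2009 and 4603 CPM in total RNA at the same ages. Its P28 mean rested on pigs at 9559 and 3576 CPM with RNase R, the second of which was below the highest P1 pig at 3614 CPM.

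The most abundant junction, chr2:61866061-61872040, also changed with age in both kinds. Its mean was 12220, 16532, 16127 and 7903 CPM with RNase R and 11073, 15107, 15040 and 7560 CPM in total RNA at P1, P3, P7 and P28 (edgeR, adjusted p = 0.00394 and 0.000195). The junction chr4:129774516-129792899 had the same order between P28 and the middle ages in both kinds at different levels. Its means were 1858, 3223, 3679 and 1281 CPM with RNase R and 6006, 8969, 7041 and 4026 CPM in total RNA, with adjusted p of 0.00394 and 0.0131. The junction chr7:20415576-20423283 (plus strand, span 7707) had 1072, 550, 1829 and 168 CPM with RNase R and 1002, 581, 1676 and 228 CPM in total RNA, with adjusted p of 1.18e-06 and 0.0295. The remaining 2 were the junctions chr5:8998034-9001360 and chr9:138816199-138847474, present in few pigs. The spread between pigs and the differences between ages cannot be told apart for them, since pigs of an age may share a litter, which the labels do not give.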

How the data were processed

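Back-splice junctions were measured in heart RNA of 12 pigs sequenced in batches nv1 (RNase R) and nv2 (total RNA), and of 12 other pigs in batch cd. The authors aligned reads with STAR 2.7.9a to Sscrofa10.2, found and annotated junctions with CIRCexplorer2, and deposited raw counts of back-spliced reads per junction, without normalization. Duplicate removal is not given in the sources used here, and intervals and floors cover counting error only. The gene and miRNA tables of batch cd were not used.

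The members and lists were chosen with earlier results of these data known. A junction entered the tests when 3 or more of the 22 libraries had 3 or more counts, after the 10% rule of the study's methods. Values were tested in R 4.3.3 with edgeR 4.0.16 (TMM scaling, quasi-likelihood test, pig as a block, Benjamini-Hochberg adjustment over all junctions tested), with DESeq2 1.42.0 as an alternative. The p-values of the paired edgeR fit use a variance shared so strongly across junctions that a junction's own spread between pigs hardly entered. Their size therefore does not measure that spread. In the other edgeR fits variance was shared across junctions as well. The sign-flip permutation p-values rest on the spread of the paired differences between these pigs. The pairing of pigs comes from the series description. As a check, deviations from the age means correlated between the libraries of a pig at -0.010 to 0.064. Centring on the age mean ties these values to each other, and the pigs at P28 give a single value by construction. Per-library measures were computed in Python 3.11.15 with numpy 2.4.6 and scipy 1.17.1, with expected values after thinning to equal depth, and tested over 2048 sign flips of 11 pairs. The scripts' tests were tested on simulated data.

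Named junctions were the 10 with the highest mean CPM, the 10 with the smallest p in each direction that moved the same way in all 11 pairs, the 5 with most reads in each kind and 0 in the other, and the shortest and longest span among the 100 most abundant of each kind. The comparison of spans and levels with batch cd, the chromosome shares, junctions of common-end pairs, junctions changing with age and those missing from the same pigs were added after seeing the data, as were the plain shares of named junctions. Levels of batch cd are shares of library totals, without TMM. Gene names were not used, because the gene table given is of another assembly.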

Additional observations from a re-analysis of the deposited data

How the results depend on the processing

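Calls between RNase R and total RNA depended most on the filter and on the number of pigs. Since the settings tested 552 to 41204 junctions, calls are given as a share of those tested with the counts in each direction. Of the junctions tested 18.1% were called (637 higher, 157 lower). This became 1.15% (390 and 84) with no filter, 54.9% (169 and 134) with 10 counts in 6 libraries, 30.4% (246 and 129) with 3 counts in 3 libraries of each kind, and 31.5% (1135 and 245) at an unadjusted p of 0.05 with an absolute log2 fold change over 0.5. Library totals gave 13.2% (329 and 252), which moved the share of lower calls from 19.8% to 43.4%, DESeq2's size factors gave 536 and 188 and DESeq2 488 and 198. Single ages gave 2.75% (79 and 39) at P1, 2.27% (71 and 27) at P3, 1.92% (65 and 19) at P7 and 0.37% (5 and 10) at P28. Of the 794 called, 9 had the other sign with the stricter filter, 2 at P1 alone, 2 at P3, 8 at P7 and 21 at P28. Leaving out each pig in turn called 14.6% to 18.2%, 431 to 612 higher and 132 to 169 lower. Without the replicate block, with age as a covariate, 23.1% were called (828 and 187), and no named junction changed its call. DESeq2 gave no adjusted p for 6 of the named junctions, all seen in 1 kind only.

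The log2 change of chr2:61866061-61872040 turned to -0.29 with library totals and -0.54 with 10 counts in 6 libraries, both called lower (edgeR adjusted p = 0.000314 and 8.77e-11), and with no filter it was 0.29 and called higher (adjusted p = 0.000278). Uncalled, it turned to -0.036 with 3 counts in 3 libraries of each kind, -0.11 with the pair left out included, -0.047 without P28 replicate 2 (-0.047 to 0.16 over all pigs left out in turn) and -0.00795 at P28 alone. That of chr1:157816757-157823318 turned to -0.50 with 10 counts in 6 libraries, called lower (adjusted p = 0.000196), and uncalled to -0.25 with library totals, -0.000852 with 3 counts in 3 libraries of each kind and -0.11 at P28 alone. The calls of chr15:36377633-36422115 and chr2:134977666-134983095 were lost under the settings given with them. Of 31 named junctions called, 9, 8, 10 and 25 lost the call at P1, P3, P7 and P28 alone, and none of these changed sign there. No other named junction changed sign under the alternatives run.

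With the pair P28 replicate 1 included, junctions per library at equal depth differed by -39.1 and the share with a single read by -1.83 points, and without thinning that share differed by -9.21 points. The share of the 10 most abundant junctions differed by -0.423 points over junctions that passed the filter and by -0.0446 without the 10 most abundant, and by -0.102 to 0.142 when each pig was left out. The number of junctions seen in 1 kind only, 480 at 10 reads, was 2380 at 5 reads, 67 at 20 reads and 83.3 with both kinds thinned to the same total. Age calls with RNase R, 21, became 3 with 10 counts in 6 libraries and 11 with DESeq2's likelihood ratio test, and were 17 to 32 when each pig was left out, with 32 without P28 replicate 3. Age calls in total RNA, 8, became 16 with the stricter filter and were 6 to 10 when each pig was left out. Unless the setting itself tests other junctions or fewer pigs, the cause was not tested.

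The median span, the shares of reads with spans under 500 and over 50000 bases, and the share of the longer common-end junction kept their direction and passed the test under the alternatives run. The 3 span classes between 500 and 50000 bases were tested under the main setting alone. Counts near 3 per library limit the rarer junctions.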

Other observations

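The chromosomes contributed differently to the 2 kinds of library. Chromosome 13 gave a median of 8.25% of back-spliced reads with RNase R and 9.27% in total RNA and was lower in all 11 pigs. Chromosomes 1 (10.7% and 11.2%), 9 (4.36% and 4.82%), 10 (5.01% and 5.25%) and 16 (2.56% and 2.89%) were also lower in all 11. Chromosome 14 gave 8.54% with RNase R and 7.84% in total RNA and was higher in all 11 pigs, as were chromosomes 5 (4.88% and 4.29%), 11 (3.31% and 2.77%), 17 (1.82% and 1.59%) and X (2.58% and 2.28%). Each of these 10 had an exact two-sided permutation p of 0.000977 (0.00186 adjusted over 19 chromosomes). Single abundant junctions named above lie on several of these chromosomes, and their part in the shares was not tested.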
